A study of Solanum lycopersicum with 3 samples.

Results

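Sites of the tomato (Solanum lycopersicum) heat shock factor HSFA1a were in places crowded together on the chromosomes, and these clusters are described here. The sites were mapped by amplified DNA affinity purification sequencing (AmpDAP-seq). In this assay, protein carrying a tag is synthesised in wheat germ extract, bound to beads and offered genomic fragments that were copied by PCR and therefore carry neither nucleosomes nor DNA methylation. A run was defined as 3 or more consecutive HSFA1a peaks of replicate 1 on chromosomes 1 to 12 in which the gap between the end of each peak and the start of the next was at most 5000 bp. There were 718 such runs, which held 2354 of the 24164 replicate 1 peaks on these chromosomes (9.74%). Peak positions in replicate 1 alone chose the runs, so run number, size, spacing and every replicate 1 value are descriptions, and only replicate 2 values were tested.

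The series had 3 samples. For 2 of them HSFA1a-Halo-tag protein was used (replicates 1 and 2), and for 1 the Halo-tag alone, whose signal was not analysed here. All used leaf DNA of the cultivar M82 from 4-week-old plants kept at 24 °C with 16 h of light a day and no heat treatment named in the labels of these samples. The labels number the replicates, and the study's methods call them independent biological replicates. The intervals below rest on spread across chromosomes or counting error within these libraries, not on spread over many experiments. Replicate 1 was the deeper library. Its median summit held 59.8 tags over a background of 11.0 tags, against 24 tags over 2.63 tags in replicate 2, as recovered from the fold enrichment and the p-value of each peak. The replicate 2 list held 14606 peaks on the same chromosomes.

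Heat shock factors bind the heat shock element, in which short nGAAn units repeat in alternating orientation, and several factors can bind side by side where units are repeated. In plants, class A heat shock factors activate chaperone genes after heat, and HSFA1a is regarded as the master regulator of this response in tomato. In an assay on naked DNA a run of peaks shows several stretches of affinity near each other, not joint occupancy in a cell. Positions below are given on the M82 assembly, counted from 1. Genes and sequences under the runs were not analysed here, because the only annotation used was made for a different tomato assembly.

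Runs of HSFA1a peaks were mostly small and a few kb long. Of the 718 runs, 558 held 3 peaks (77.7%), 130 held 4 and 26 held 5. Single runs of 6, 7, 8 and 9 peaks made up the remainder. The span of a run had a median of 5881 bp (quartiles 4249 and 7720 bp), from 1058 to 21900 bp. Spans were under 3 kb for 76 runs and over 10 kb for 52. The runs together spanned 4.42 Mb, which is 0.552% of the 802 Mb between the chromosome starts and the last peaks.

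To ask how many runs the number of peaks alone would give, the expectation for uniform placement was computed in closed form for each chromosome from its peak number and the length free of peaks. Uniform placement gave 414 runs of 3 or more, so that the observed number was 1.73 times the expectation. The replicate 2 list, joined by the same rule, gave 225 runs against 103 expected, a ratio of 2.19. The mean of the ratios was 1.96 ± 0.324 (SD, n = 2). The ratio of observed to expected runs grew with run size from 3 to 5 peaks in replicate 1 and from 3 to 4 in replicate 2. In replicate 1 there were 558 runs of 3 against 356 expected, 130 runs of 4 against 50.4, and 26 runs of 5 against 7.16. The single replicate 1 run of 6 stood against 1.02 expected, and those of 7, 8 and 9 against 0.146, 0.0209 and 0.0030. In replicate 2 there were 198 runs of 3 against 93.6 expected and 23 runs of 4 against 8.25, and the single run of 5 stood against 0.730 expected. When the expectation used the peak density of each 1 Mb bin, which counts the runs themselves, it was 485 runs in replicate 1 and 130 in replicate 2, and the ratios were 1.48 and 1.73. The expectation takes every position as equally able to hold a peak, and no p-value was made from it.

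**Figure D1:**
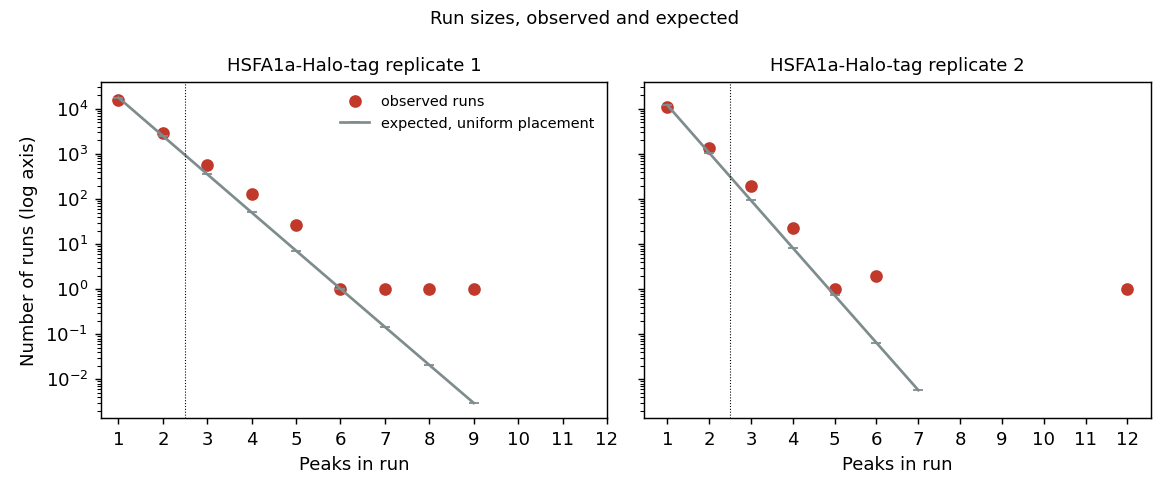
Number of runs (log axis) by number of peaks in the run, for replicate 1 (left) and replicate 2 (right), with observed runs as points, the expectation for uniform placement as lines and the lower limit of 3 peaks as a dotted line. Points of 3, 4 and 5 peaks in replicate 1 (558, 130 and 26 runs) lie above the line (356, 50.4 and 7.16). The single replicate 1 run of 6 peaks lies close to the line (1.02), and the replicate 2 run of 12 peaks stands alone.

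A replicate 1 peak is called overlapped where a replicate 2 peak covered 1 bp or more of it, as was found for 55.9% of all replicate 1 peaks. The largest run lay on chromosome 12 at positions 47004807 to 47013072. It held 9 replicate 1 peaks in 8266 bp, and replicate 2 called 12 peaks in the same span, all of which overlapped a replicate 1 peak. No other replicate 2 run on the numbered chromosomes held more than 6. Replicate 1 fold enrichment, the ratio of tags to local background at the summit, was 8.90, 10.2, 10.3, 11.4, 5.04, 11.997, 4.86, 12.2 and 8.55 along the run. The 12 replicate 2 peaks lay between 4.21 and 12.2 with a median of 7.67. Both libraries had their highest value, 12.2, at the peak at positions 47012100 to 47012419. Peaks covered 65.4% of the span in replicate 1 and 44.0% in replicate 2, where the median run of the same library was covered to 12.4% and 10.8%. The first peak was 1646 bp wide, where replicate 2 had 4 separate peaks. Gaps among the first 4 replicate 1 peaks were all under 200 bp, the smallest 89 bp, and several replicate 2 gaps were too. Neighbouring peaks there could be pieces of the same enriched stretch, so the peak numbers need not be numbers of separate sites. At 4 of the 9 peaks the replicate 1 background was at its genome-wide minimum of 7.16 tags. What part this had in the result was not tested.

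The longest run and next in size lay on chromosome 9 at positions 65865450 to 65887349. It held 8 peaks in 21900 bp, whose summits were 2017 to 4563 bp apart. Fold enrichment along the run was 3.30, 3.78, 12.2, 12.4, 13.6, 15.3, 3.81 and 9.69 in replicate 1. Replicate 2 overlapped all but the seventh peak, with 5.34, 4.31, 10.2, 13.2, 15.1, 19.4 and 12.1. The strong peaks were the same in both libraries, and the one missed by replicate 2 was among the weak ones. The shortest run, on chromosome 12 at positions 30376771 to 30377828, held 3 peaks in 1058 bp with fold enrichments of 5.65, 3.85 and 5.05. None of its peaks was overlapped by replicate 2, and the background of all 3 was at the minimum.

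The remaining large runs were mixed in strength. On chromosome 9 at positions 8443505 to 8455578, 7 peaks had fold enrichments of 2.04, 3.84, 2.25, 2.83, 10.3, 4.82 and 4.41 in replicate 1. Replicate 2 overlapped the last 4 of these, with 3.41, 11.0, 5.85 and 5.11, so that 1 strong site stood among weak ones in both libraries. On chromosome 3 at positions 16273415 to 16283269, all 6 peaks were overlapped. There, replicate 1 gave 10.9, 6.04, 2.94, 9.35, 4.87 and 3.88, and replicate 2 gave 7.94, 5.43, 4.90, 8.46, 4.54 and 3.50. The first and the fourth peak were the highest in both libraries.

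The 6 most compact runs of 5 peaks spanned 6974 to 8321 bp and lay on chromosomes 6, 1, 2, 7, 2 and 3. On chromosome 6, at positions 25582330 to 25589303, the highest replicate 1 value was 6.11 and 2 of the 5 peaks were overlapped. On chromosome 1, at positions 12475836 to 12483115, fold enrichment lay between 2.86 and 15.5 in replicate 1 and 3 peaks were overlapped, with 9.69, 11.7 and 5.64 in replicate 2. On chromosome 2, at positions 18250327 to 18258093, 4 of 5 peaks were overlapped, with 12.4, 8.25, 12.6 and 8.05 in replicate 1 and 13.7, 8.87, 13.1 and 7.88 in replicate 2. The peak that was not overlapped, the fourth along that run, had 2.81 in replicate 1. The other run on chromosome 2, at positions 30717869 to 30725216, had values up to 12.8, and those on chromosome 7 (57421794 to 57429199) and chromosome 3 (34702073 to 34710393) up to 11.8 and 12.1. In none of these 6 runs did replicate 2 overlap all 5 peaks.

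**Figure D2:**
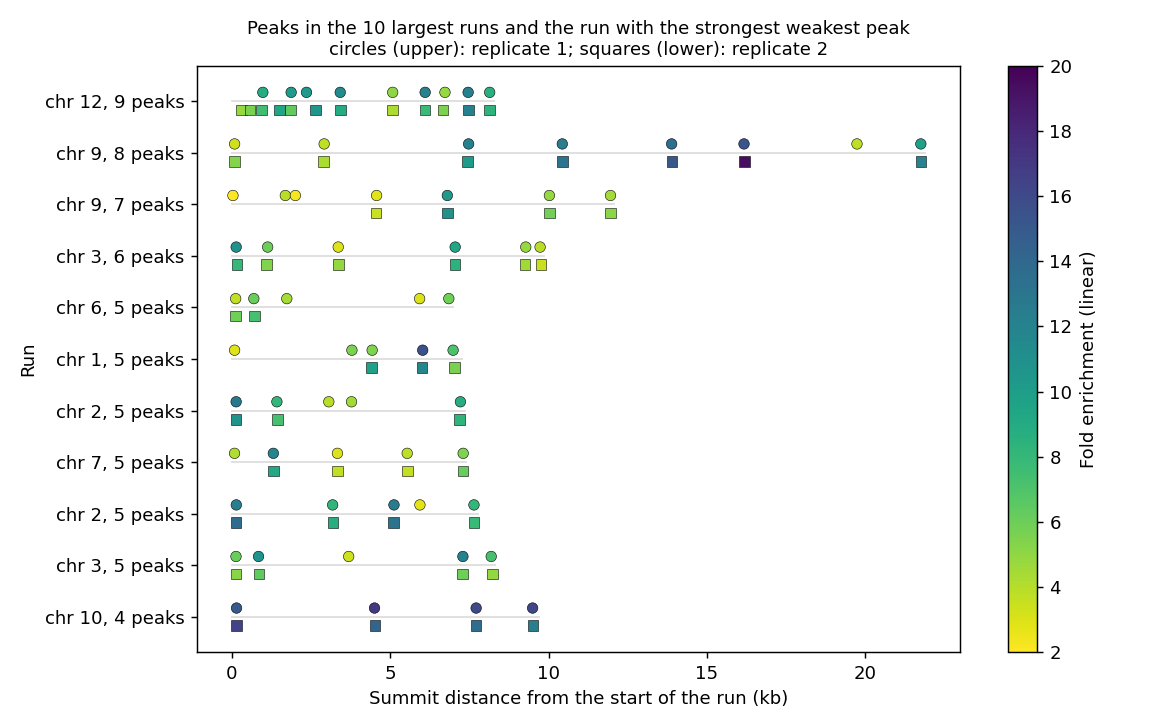
Summit positions in kb from the start of each run, for the 10 largest runs and the chromosome 10 run of 4 peaks, with circles for replicate 1 peaks, squares for replicate 2 peaks and darker colours for higher fold enrichment. In the chromosome 12 run 9 circles face 12 squares, and in most other runs the peaks without a square are pale.

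Runs in which every peak was strong were rare. The fold enrichment of all peaks was at least 10 in 3 runs and at least 4 in 186, while it stayed under 4 throughout in 30. At least 1 peak reached 10 in 244 runs. Over all replicate 1 peaks the quartiles of fold enrichment were 3.44 and 7.39, so most peaks of the list were under 10. These counts are therefore not read as a trait of runs. The run with the strongest weakest peak in either library lay on chromosome 10 at positions 35161170 to 35170881. Its 4 peaks had 15.0, 16.9, 16.0 and 16.2 in replicate 1 and 16.4, 14.2, 13.6 and 12.3 in replicate 2. The values were nearly even in replicate 1, where the highest was 1.13 times the lowest.

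The other runs past 10 throughout lay on chromosome 3 (31118658 to 31122435) and chromosome 2 (52010889 to 52014907), each with 3 peaks. On chromosome 3 the values were 13.6, 17.5 and 12.5 in replicate 1 and 12.8, 12.1 and 7.72 in replicate 2. On chromosome 2 they were 14.5, 14.6 and 10.3 in replicate 1 and 13.2, 10.7 and 9.82 in replicate 2. On chromosome 1 the run at 15777377 to 15783593 had 9.43, 10.6 and 9.65 in replicate 1 and 9.38, 12.03 and 10.8 in replicate 2. A further replicate 2 peak in that span, at 15782696 to 15782883, overlapped no replicate 1 peak and had 3.94. The run on chromosome 5 at 24062509 to 24065939 had 9.30, 9.79 and 11.6 in replicate 1 and 5.91, 10.7 and 8.93 in replicate 2. The set chosen on replicate 2 added a run on chromosome 1 (90645721 to 90652243), with 9.88, 11.2 and 12.5 in replicate 2, and one on chromosome 12 (38048552 to 38055558), with 10.4, 11.1 and 9.02. In that chromosome 12 run the 3 summits were 3360 and 3378 bp apart.

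Within a run, strong and weak peaks were usually mixed. The strongest peak was a median of 2.37 times the weakest (quartiles 1.80 and 3.39), and the ratio exceeded 3 in 236 of the 718 runs. The share of the variance of log2 fold enrichment that lay between runs was 0.057 in replicate 1 (2354 peaks of 718 runs) and 0.086 in replicate 2 (1195 overlapping peaks of 480 runs). In runs of 2 peaks, which the definition left out, it was 0.077 and 0.066. The log2 background was more alike within runs, with shares of 0.267 in replicate 1 and 0.259 in replicate 2. Peaks of one run share a library and neighbouring stretches of local background, and these shares are descriptions across peaks. Among the 558 runs of 3, the strongest was the left peak in 175, the middle peak in 187 and the right peak in 196. In the 125 of these runs with all 3 peaks overlapped, the same peak was strongest in both libraries in 93 (74.4%).

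Gaps within runs were spread over the allowed range. The 1636 gaps had a median of 2247 bp, and 352 were under 1 kb, 379 between 1 and 2 kb, 345 between 2 and 3 kb, 257 between 3 and 4 kb and 303 above that. Of these, 65 were under 200 bp, in 63 runs, where neighbouring peaks could be pieces of one enriched stretch. The next run on the same chromosome lay a median of 698 kb away, and within 20 kb for 13 runs.

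In replicate 1, peaks in runs were slightly stronger than other peaks. Median fold enrichment was 5.04 (quartiles 3.50 and 7.66) in runs and 4.73 (3.44 and 7.36) elsewhere. By run size it was 4.69 for single peaks, 4.85 in runs of 2, 4.98 in runs of 3, 5.26 in runs of 4 and 4.54 in runs of 5. The 30 peaks in runs of 6 or more had a median of 7.30. Peak width had a median of 220 bp in runs and 215 bp elsewhere. Median background was 11.3 tags in runs and 11.0 tags elsewhere, and it was at the minimum for 9.43% of peaks in runs and 12.8% of others. What part the background had in the difference was not tested.

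At the peaks that it called, replicate 2, which took no part in the choice of runs, gave no detectable difference in strength. Replicate 1 peaks without a replicate 2 peak have no value there, so this set is unlike the replicate 1 set above. In replicate 1, the overlapped peaks had a median fold enrichment of 7.05 in runs and 6.73 elsewhere. Among replicate 1 peaks with a replicate 2 peak, median replicate 2 fold enrichment was 6.96 (quartiles 5.48 and 9.31) for 1374 peaks in runs and 6.83 (5.38 and 9.31) for 12129 others. The mean difference in log2 fold enrichment over the 12 chromosomes was 0.013 (95% t interval -0.016 to 0.043), and it was above 0 on 6 of 12. Replicate 2 fold enrichment of at least 10 was found for 20.2% of peaks in runs, against 20.3% of all 13503 overlapped peaks. Without the pseudocount of the peak caller the difference was 0.012 (-0.023 to 0.047). At the overlapping peaks, log2 fold enrichment in the libraries correlated with a Pearson r of 0.819 in runs (1374 peaks) and 0.821 elsewhere (12129 peaks). The backgrounds recovered for the lists correlated too, with an r of 0.973 in runs and 0.974 elsewhere. Whether both lists were called against the same control is not given in the sources used here. The background correlation can therefore not be read as agreement of separate libraries. What part the background had in the correlation of fold enrichment was not tested.

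**Figure D3:**
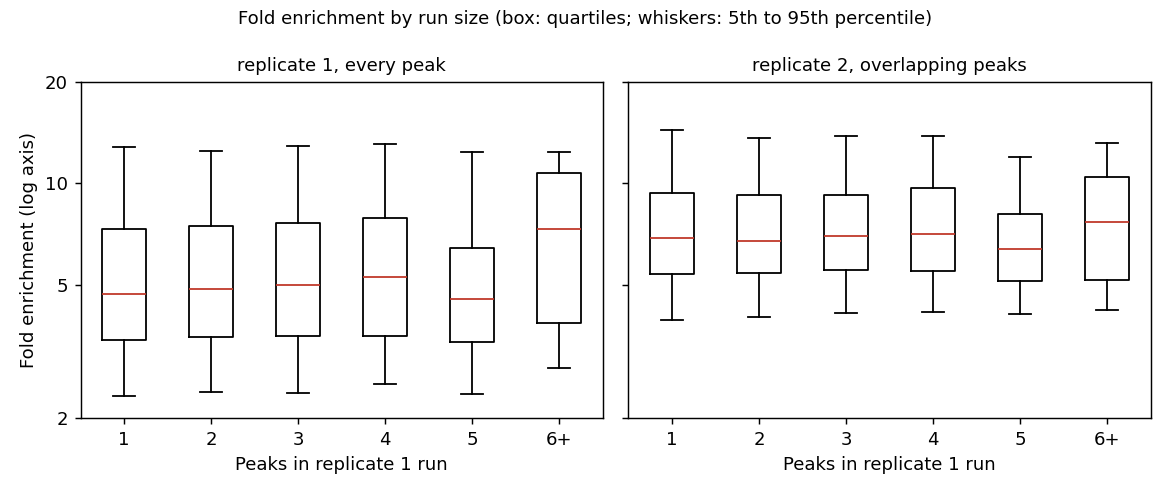
Fold enrichment (log axis) by number of peaks in the replicate 1 run, for every replicate 1 peak (left) and the overlapping replicate 2 peaks (right), as boxes of quartiles with the median and whiskers to the 5th and 95th percentiles. Medians stay between 4.54 and 5.26 in replicate 1 for sizes 1 to 5 and between 6.36 and 7.09 in replicate 2, and the peaks of the 4 largest runs have medians of 7.30 and 7.67.

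Recall, the share of replicate 1 peaks overlapped by replicate 2, was next compared. Of the 2354 peaks in runs, 1374 were recalled, which is 58.4% (95% Wilson interval 56.4% to 60.3%). Of the 21810 other peaks, 12129 were recalled, or 55.6% (55.0% to 56.3%), against the 55.9% over all peaks. These intervals cover counting error only and take peaks as independent, although peaks of a run share a locus. With the chromosome as the unit, recall in runs minus recall elsewhere averaged 2.66 points (95% t interval -0.138 to 5.46, SD 4.40, n = 12), and the interval included 0. Recall in runs was the higher on 9 of 12 chromosomes. With joining at 2000 bp the difference was 5.72 points (2.37 to 9.07).

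By run size, recall was 55.1% for single peaks (54.3% to 55.9%), 57.1% in runs of 2 (55.8% to 58.3%), 58.2% in runs of 3 (55.8% to 60.5%), 59.6% in runs of 4 (55.3% to 63.7%) and 49.2% in runs of 5 (40.8% to 57.7%). The interval for runs of 5 overlapped those of all smaller sizes. In the 4 largest runs 26 of 30 peaks were recalled (86.7%, 70.3% to 94.7%), and these peaks share only 4 loci.

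Peak strength was taken into account by setting each peak in a run beside other peaks of the same class of replicate 1 −log10 q. Recall in runs minus recall elsewhere was then -0.436 points (95% t interval -2.18 to 1.31, n = 12). The interval included 0, and the difference was above 0 on 5 of 12 chromosomes. In the weakest of 10 classes recall was 6.36% in runs (3.83% to 10.4%) and 6.69% elsewhere. In class 5 it was 43.0% in runs (36.4% to 49.8%) and 44.4% elsewhere, and in class 8 94.8% in runs (91.5% to 96.9%) and 94.0% elsewhere. In class 10 all 260 peaks in runs and all 2156 others were recalled. Classes 7 to 10 held 10.9%, 11.4%, 11.2% and 11.0% of the peaks in runs, against 9.90%, 9.85%, 9.87% and 9.89% of the others.

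**Figure D4:**
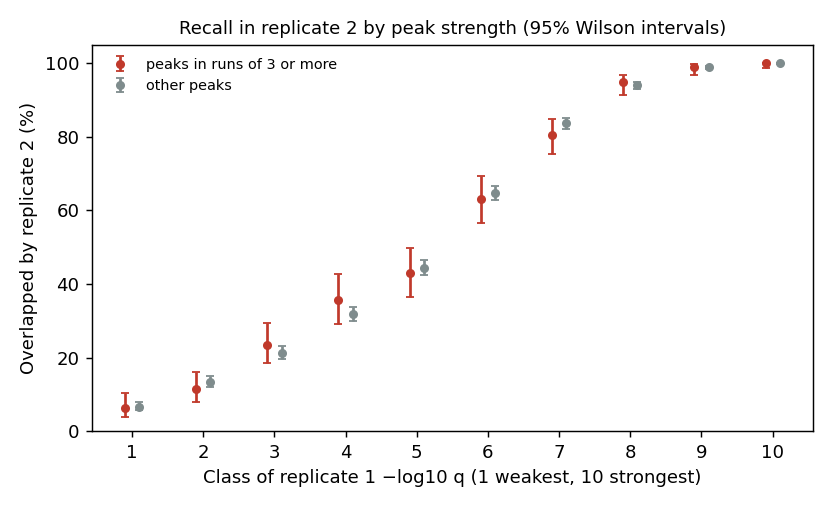
Share of replicate 1 peaks overlapped by a replicate 2 peak in 10 classes of replicate 1 −log10 q, for peaks in runs and for other peaks, with 95% Wilson intervals as bars. In each class the interval for runs includes the value of the other peaks, from 6.36% in runs and 6.69% elsewhere in class 1 to 100% for both in class 10.

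Whole runs were found again in part. All peaks were overlapped in 143 of 718 runs (19.9%, 95% Wilson interval 17.2% to 23.0%), and no peak in 59 (8.22%, 6.42% to 10.5%). The span held at least 1 replicate 2 peak in 659 runs (91.8%), at least 2 in 486 (67.7%) and at least 3 in 202 (28.1%, 25.0% to 31.5%). Of the 1388 replicate 2 peaks within the spans, 1381 overlapped a replicate 1 peak (99.5%). A run of 3 or more replicate 2 peaks overlapped 183 of the 718 replicate 1 runs (25.5%), and 183 is 81.3% of the 225 replicate 2 runs (75.7% to 85.9%). Of the peaks in runs, 24.5% overlapped a peak of a replicate 2 run, where the share over all replicate 1 peaks was 2.73%. Single peaks gave 0.093% and runs of 2 gave 1.18%. Of the replicate 2 peaks in runs, 93.6% overlapped a replicate 1 peak. A replicate 2 run thus mostly sat on replicate 1 peaks that were already close together. The rule therefore largely set the contrast between these shares, and it was not tested. The share of all replicate 2 peaks that lay in replicate 2 runs was 4.90%.

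Finding a run again went with its weakest peak. All peaks were overlapped in 7 of 288 runs with a weakest fold enrichment under 3 (2.43%, 95% Wilson interval 1.18% to 4.93%), in 42 of 244 with 3 to 4 (17.2%), in 57 of 139 with 4 to 6 (41.0%) and in 37 of 47 with 6 or more (78.7%, 65.1% to 88.0%). The intervals of the first and last class do not overlap. Recall rose with strength for peaks in runs and for other peaks alike, so a rise of this kind was set in advance. It is not read as a trait of runs, and run size was not held fixed across these classes. In the 558 runs of 3, the number with 0, 1, 2 and 3 overlapped peaks was 55, 157, 221 and 125. If peaks were overlapped independently at the rate of other peaks of the same strength, 45.3, 168, 227 and 118 runs would be expected. Of the 130 runs of 4, 3 had no overlapped peak against 2.70 expected, and 16 had all 4 overlapped against 16.9. Of the 26 runs of 5, 1 had no overlapped peak against 1.07 expected, and 0 had all 5 overlapped against 0.959. No p-value was made from these expectations.

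Runs occurred on all 12 chromosomes. Their number was between 47 on chromosome 2 and 81 on chromosome 1, and their density between 0.749 per Mb on chromosome 3 and 1.11 per Mb on chromosome 9. The share of peaks that lay in runs was lowest on chromosome 3 (8.43%) and highest on chromosome 6 (11.5%). The ratio of observed to expected runs was above 1 on every chromosome in both libraries, from 1.48 (chromosome 3) to 2.61 (chromosome 6) in replicate 1 and from 1.78 (chromosome 10) to 2.62 (chromosome 1) in replicate 2. On chromosome 6, where 48 runs stood against 18.4 expected in replicate 1, replicate 2 had 11 against 4.42, a ratio of 2.49. Recall in runs ranged from 50.8% on chromosome 10, against 55.3% of other peaks there, to 64.5% on chromosome 3, against 54.4% of other peaks there.

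**Figure D5:**
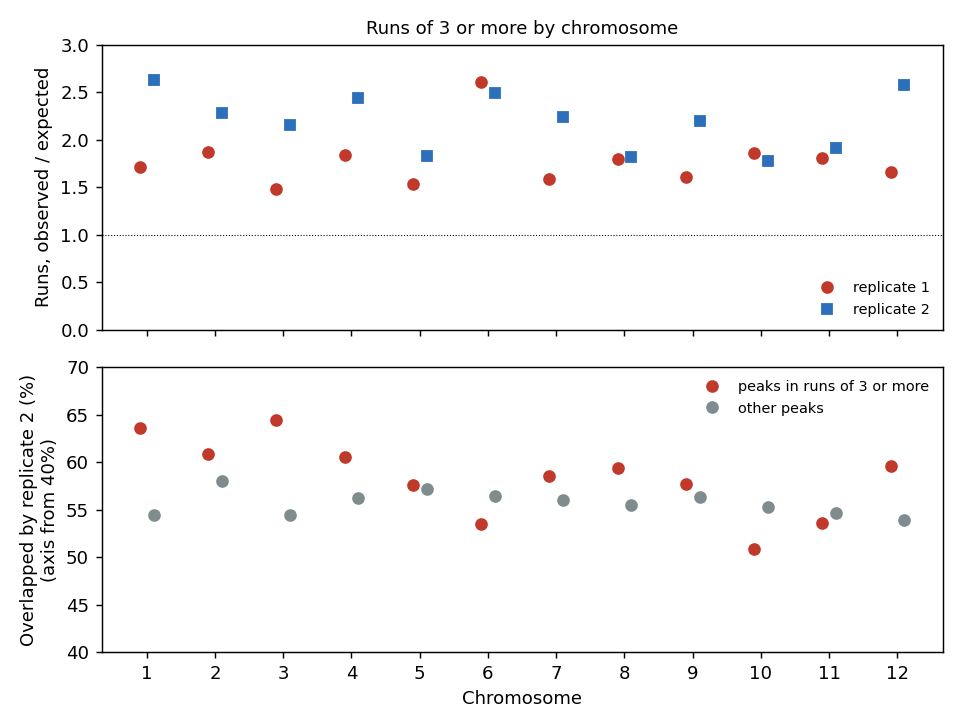
Observed over expected number of runs of 3 or more on each chromosome in replicate 1 (circles) and replicate 2 (squares), with a dotted line at 1 (upper panel), and recall in replicate 2 of peaks in runs and of other peaks, on an axis that starts at 40% (lower panel). All ratios lie above 1, from 1.48 to 2.61 in replicate 1, and recall in runs is the higher on 9 of 12 chromosomes.

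In tomato, gene density is highest near the ends of chromosomes, so position along the chromosome was compared. The outer 20% at each end held 32.8% of peaks in runs and 37.0% of other peaks in replicate 1, and 31.9% of peaks in runs and 37.7% of other peaks when runs were built from replicate 2 alone. Over all replicate 1 peaks it was 36.6%. Each of these values was below the part of the chromosome length that both ends together make up. The share was higher in runs than elsewhere on 4 of 12 chromosomes in replicate 1 and on 5 of 12 in replicate 2. Positions in each list also chose its runs, so these shares were not tested.

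The members just inside and just outside the limit of 5000 bp were described without a test. For the 141 runs whose largest gap was between 4500 and 5000 bp, 467 peaks had a median replicate 1 fold enrichment of 5.17 and 60.0% were recalled. The 334 peaks that entered runs only when gaps up to 5500 bp were allowed had a median of 4.70 and 54.8% were recalled.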

How the data were processed

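AmpDAP-seq libraries of tomato leaf DNA were sequenced by the authors as single 75 bp reads after 20 PCR cycles. The submitters' processing notes name Trimmomatic 0.38, Bowtie2 2.3.5, SAMtools 1.9 and MACS2 2.2.7.1. The study's methods describe alignment to the M82 assembly for its ChIP-seq data, and the control and duplicate handling for DAP-seq are not given in the sources used here. The authors deposited 1 peak list per HSFA1a-Halo-tag replicate, called at a q-value of 0.05. Each deposited fold enrichment divides the summit's pileup by its local background after a pseudocount of 1 is added to both. Significance was deposited as −log10 p-values and −log10 q-values.

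Peaks on the 12 numbered chromosomes were joined at gaps of at most 5000 bp in Python 3.11.15 (numpy 2.4.6, scipy 1.17.1, pandas 2.3.3, matplotlib 3.10.9). Run members and all comparisons were chosen with earlier results of these data known. Where several replicate 2 peaks overlapped a replicate 1 peak, the one whose summit was closest was used. Differences between peaks in runs and other peaks were averaged over chromosomes, with a two-sided 95% t interval, and were called where it left out 0. Strength was matched in 20 classes of −log10 q. Pileup and background were solved from each peak's fold enrichment and p-value, with whole pileups in replicate 2 and pileups scaled by 0.981 in replicate 1, which fitted 100% of summits in each list. Uniform placement was taken as a Poisson process on the length free of peaks. The steps were tested on simulated data. The regions described are the 10 runs with the most peaks (ties by shorter span), the 5 with the highest weakest peak in replicate 1, the 5 fully overlapped runs with the highest weakest peak in replicate 2, and the shortest and longest runs. The choice on replicate 2 counted only replicate 2 peaks that overlapped a peak of the run. Alternatives changed the joining distance, the gap measure, the run size, the peak threshold, the overlap rule, the strength measure and the sequences used.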

Additional observations from a re-analysis of the deposited data

Results flagged for a closer look

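The organelle sequences, which entered no comparison above, held runs as well. In replicate 2, 206 of 207 mitochondrial peaks lay in 11 runs of 3 or more, the largest of 73 peaks, and all 110 chloroplast peaks lay in 2 runs, the larger of 88. These numbers caught attention because replicate 1 had no run there, with 5 mitochondrial peaks and no chloroplast peak. This compares 1 library with 1 other and was not tested. Median replicate 2 fold enrichment in these runs was 2.38 on the mitochondrial and 3.19 on the chloroplast sequence, against 6.65 in replicate 2 runs on the numbered chromosomes. The reason was not tested, and no organelle peak enters the values above.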

How the results depend on the processing

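Over 7 results, 88 alternatives were computed, of which 49 were counted as unchanged. For differences this meant the same direction and call, and for numbers of runs and peaks a value within 1.5 times. For the ratio to uniform placement it meant a value within the SD of 0.324. For the share of runs found again it meant a value inside the main Wilson interval. The alternatives of equal list length and without the runs of 6 or more peaks were chosen after seeing the data. By construction, the number of runs moved with the joining distance and the list: it was 177 with gaps of at most 2000 bp, 1610 with 10000 bp, 245 with a fold enrichment of at least 4, 3596 for runs of 2 or more, 160 for runs of 4 or more and 236 with lists of equal length, and 225 from replicate 2 without replicate 1. The peaks in runs numbered 554, 5653, 775, 8110, 680, 743 and 715 in the same order. The ratio to uniform placement was 2.23 with 2000 bp, 1.31 with 10000 bp, 2.11 with a fold enrichment of at least 4, 2.29 with equal lists and 2.19 without replicate 1, and in no alternative was it under 1.31. The difference in recall between peaks in runs and other peaks passed the interval with gaps of at most 2000 bp (5.72 points), a q-value of at most 1e-05 (3.50), peaks within 200 bp merged (2.68) and runs of 2 or more (2.27), and stayed positive in every alternative computed (1.44 to 5.72). The cause was not tested. At matched strength the sign turned, with intervals that included 0, with 2000 bp (0.453), a q-value of at most 1e-05 (0.231), runs of 2 or more (0.182) and fold enrichment as strength (0.362). The log2 difference in replicate 2 fold enrichment turned to -0.0037 with a q-value of at most 1e-05, -0.015 with a fold enrichment of at least 4, -0.0019 for runs of 2 or more, -0.0050 for runs of 4 or more and -0.0093 with equal lists, each with an interval that included 0. The share of runs found again was 31.8% with 10000 bp, 53.5% with a fold enrichment of at least 4, 5.81% for runs of 2 or more, 47.5% for runs of 4 or more, 62.3% with equal lists, 67.7% when 2 replicate 2 peaks sufficed and 91.8% when 1 did. Pairing of samples between groups was not possible because peak lists of only 1 group, HSFA1a-Halo-tag, were used. Replicate 2 had 24 tags at its median summit, against 59.8 in replicate 1 over its own longer list. What part depth had in recall was not tested.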

Other observations

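In 3 of the 718 runs replicate 2 called more peaks in the span than replicate 1, although its list was the shorter. The chromosome 12 run of 9 peaks, with 12 in replicate 2, was one of them. Another was the chromosome 1 run at positions 15777377 to 15783593, with 4 replicate 2 peaks for 3 in replicate 1. On the numbered chromosomes, the fourth largest replicate 2 run lay on chromosome 2 at positions 27266003 to 27277034, with 5 peaks of fold enrichment 4.12 to 9.02, and it lay in a replicate 1 run that also held 5 peaks.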
